A study of Mus musculus with 2 samples.

Results

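The SNARE and synaptotagmin genes of the mouse were followed in hippocampal RNA after dietary astaxanthin. The group was formed by name: every probe for a mouse transcript whose RefSeq accession leads to a symbol that begins with Syt, Stx, Vamp or Snap and goes on with a digit, with the brightest probe standing for the gene. The rule took 42 genes with a probe out of 16533 symbols with a probe, and 39 of them were read well above background in both RNAs on both arrays, out of 13318 symbols read that way. By family there were 14 synaptotagmins, 13 syntaxins, 7 VAMPs and 5 genes named Snap among the 39. Snap91 encodes the clathrin assembly protein AP180, which is no SNARE, and it entered by its name alone. Syt8, Syt15 and Stx19 had a probe that was not well above background in both RNAs on both arrays, and no probe was matched to Syt5, Stx11, Vamp9 or the pseudogene Vamp7-ps.

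Vesicle fusion at the synapse runs on a small set of proteins. Syntaxin-1 and SNAP-25 in the plasma membrane zip together with VAMP2 (synaptobrevin) in the vesicle membrane into a helical bundle that pulls the membranes into contact, and synaptotagmin, through its pair of C2 domains, senses the calcium that triggers fusion. Other syntaxins, VAMPs and SNAP-25 relatives do the same work between the endoplasmic reticulum, the Golgi, endosomes and autophagosomes. In the hippocampus these genes are known for their part in transmitter release at the excitatory synapses of granule and pyramidal cells.

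The RNA came from male C57BL/6J mice, 11 weeks old and 26 to 28 g at the start. In the ASX group powdered chow held 0.5% (w/w) of a powder with 2% astaxanthin, a carotenoid of the alga Haematococcus pluvialis, for 4 weeks after 1 week of acclimatization, and in the control group it held 0% of that powder and a placebo. Both RNAs were hybridised together on 2 two-colour arrays, with ASX RNA in Cy5 and control RNA in Cy3 on array 1 and the dyes exchanged on array 2. Both arrays are titled n=4 and described as a dye swap, and the design gives 4 replicates per diet, but the labels do not say how mice were combined or whether both arrays carry the same RNAs. They were taken to hold the same 2 RNAs with the dyes exchanged, so they count as 1 replicate, and no test of the diet was made. Log2 ratios below are ASX over control, a mean is the mean of the arrays, and the ± after it is the SD between the 2 arrays, which is technical under that assumption. In whole-tissue RNA, fewer cells of a type and less RNA per cell cannot be told apart.

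Between 75.8% and 78.2% of the 43379 transcript spots were well above background per RNA and array. The median SD over the spots of 200 measured probes with 10 spots each was 0.034 for the mean log2 ratio, and the number of arrays limits the precision further. Of the hippocampal neuron markers, 14 of 15 were measured, with 5 above 0 on both arrays, none below, and a median of 0.05. Markers of striatum (8 of 9 measured below 0 on both arrays, median -0.24), of thalamus and habenula (6 of 9, -0.14) and of ependyma (6 of 6, -0.22) lay below equality, and those of meninges above it (10 of 13, 0.18). Of all genes with a symbol, 14.3% were above 0 on both arrays and 26.4% below. Medians of oligodendrocyte, astrocyte and microglia markers were -0.06, -0.03 and -0.03. The part of tissue composition in the values below was not tested.

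With loess scaling, SNARE and synaptotagmin transcripts stood at nearly equal levels in the ASX and control RNAs. None of the 39 genes was 1.5-fold higher, or 1.5-fold lower, in ASX RNA on array 1 and again on array 2, a size that 0.0300% of all genes with a symbol reached in either direction. None reached 1.2-fold (0.26 on the log2 scale) on each array either, against 0.233% of genes with a symbol higher and 0.330% lower. These counts rest on the scaling. With each array centred on spike-in RNAs, 13 of the 39 were 1.2-fold lower on each array, a count for which no share over all genes is given. The median of the 39 was then -0.38, where the median of genes with a symbol was -0.36. With the scanner's own ratios, 1 gene, Syt14, was 1.2-fold higher on each. The mean of the arrays lay within 1.1-fold of equality for 35 of the 39 genes (89.7%), as it did for 88.0% of genes with a symbol, and within 1.2-fold for 38 (background 98.6%). Syt14, a synaptotagmin without the residues that bind calcium, was the exception, with a mean fold of 1.21.

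The median over the 39 genes was -0.007, against -0.02 over genes with a symbol. Without Snap91 it was -0.02. Means ran from -0.21 for Syt9 to 0.28 for Syt14, and their SD over genes was 0.10, the same size as the 0.10 over genes with a symbol. Above 0 on both arrays were 6 genes (15.4%, background 14.3%), namely Syt1, Syt7, Syt14, Syt16, Stx2 and Snap91. Below 0 on both were 9 genes (23.1%, background 26.4%), among them Syt2, Syt4, Syt9, Syt17, Stx4a, Stx5a, Stx16 and Vamp5. Both shares were close to those of all genes with a symbol. With each array centred on its median in place of loess, 2 genes were above and 22 below (background 8.92% and 61.4%), and the median of genes with a symbol was itself -0.16. Leaving out the spike-in scaling, 19 genes kept one sign under the 9 other settings with both arrays, 4 above 0 (Stx2, Syt7, Syt10 and Syt14) and 15 below. No share over all genes is given for this count, and the 9 settings include median centring, which put 61.4% of them below 0. Relative to the median of genes with a symbol, 10 genes stayed above and 11 below under all 10 settings with both arrays. This count too has no share over all genes beside it, and the 10 settings are not separate checks, since some give the same values.

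The remaining 24 genes lay on opposite sides of 0 on the arrays. A part that goes with the dye and noise between arrays cannot be told apart there, and many of these values were smaller than the scanner's error. Cy5 was the brighter dye on each array for 14 genes (35.9% of the 39, background 28.7%) and the dimmer for 10 (25.6% of the 39, background 30.6%). Across the 39 genes, which share the same arrays and labelling, the turned ratios of array 1 and array 2 had a Pearson correlation of -0.23, close to the -0.25 over all genes with a symbol. Among the 15 genes with a mean log2 brightness above 12, 9 had the higher signal in Cy5 each time, as did 31.2% of the 3452 genes with a symbol that were as bright. Over the 39 genes the median size was 0.09 for the half-difference between arrays and 0.08 for their mean.

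**Figure D1:**
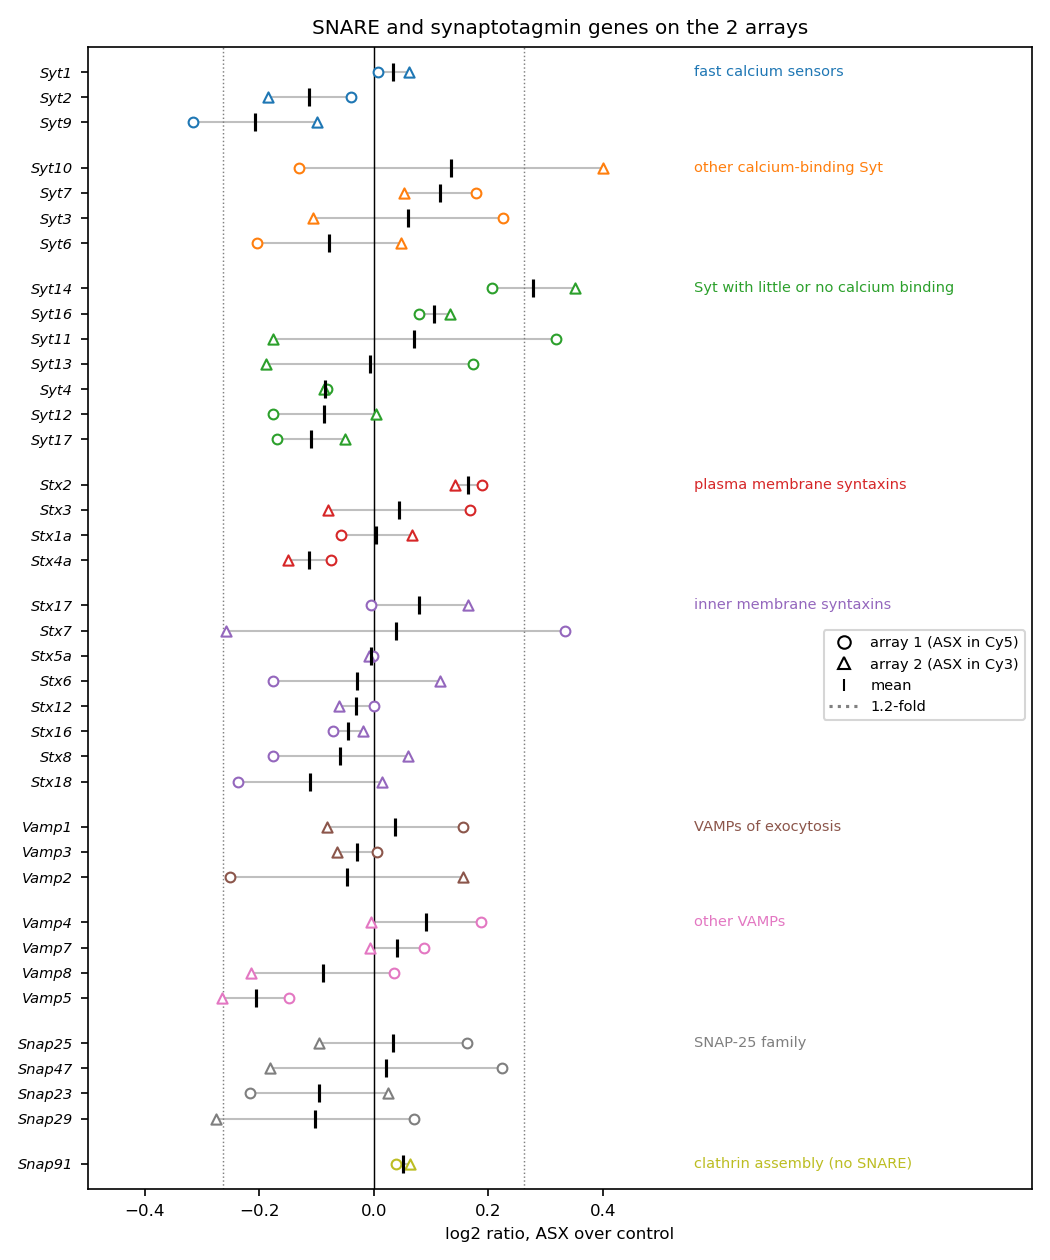
Log2 ratio of ASX over control (x axis) for 38 of the 39 genes (y axis), grouped by role. Circles are array 1 and triangles array 2, bars mark the mean of the arrays, and dotted lines stand at 1.2-fold; Syt14 has the highest mean (0.28) and Syt9 and Vamp5 the lowest (-0.21 each), and no gene has both symbols beyond the same dotted line.

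The scanner software gives each spot its own error for the log ratio, which on the log2 scale lay between 0.20 and 0.32 for these genes on a single array, and between 0.14 and 0.20 for the mean of both. The mean exceeded that error in 4 genes, Syt14, Stx2, Syt9 and Vamp5, and in each the arrays had the same sign. The share of all genes with a symbol past their own error is not given, so this count has no background. The promoter windows of these 4 are shown because they lie farthest from equality in each direction. They are RefSeq sequences of build GRCm38.p6, 300 bases around an annotated start, with GC boxes (GGGCGG) and TATA boxes (TATAAA) in capitals on either strand; neighbouring GC boxes may overlap. Stx2 has 2 annotated starts.
Syt14, chr1:193035726-193036025, minus strand: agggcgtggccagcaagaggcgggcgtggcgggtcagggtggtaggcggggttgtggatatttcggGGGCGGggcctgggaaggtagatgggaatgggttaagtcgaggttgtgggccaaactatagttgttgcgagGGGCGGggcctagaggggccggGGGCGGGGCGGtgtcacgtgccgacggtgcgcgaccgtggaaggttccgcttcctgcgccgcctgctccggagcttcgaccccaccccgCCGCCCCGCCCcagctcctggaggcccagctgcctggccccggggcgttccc
Stx2 downstream start, chr5:128990187-128990486, minus strand: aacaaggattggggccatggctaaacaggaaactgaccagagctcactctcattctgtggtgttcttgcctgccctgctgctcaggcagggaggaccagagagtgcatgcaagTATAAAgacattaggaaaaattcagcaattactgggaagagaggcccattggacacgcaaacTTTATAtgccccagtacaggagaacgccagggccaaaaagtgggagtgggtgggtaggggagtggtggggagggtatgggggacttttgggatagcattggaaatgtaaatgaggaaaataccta
Stx2 upstream start, chr5:129008523-129008822, minus strand: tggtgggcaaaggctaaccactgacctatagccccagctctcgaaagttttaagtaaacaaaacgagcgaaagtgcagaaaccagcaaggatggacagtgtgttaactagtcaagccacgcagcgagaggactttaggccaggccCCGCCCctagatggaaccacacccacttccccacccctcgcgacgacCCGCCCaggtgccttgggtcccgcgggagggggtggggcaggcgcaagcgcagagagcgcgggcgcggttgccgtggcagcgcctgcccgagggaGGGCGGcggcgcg
Syt9, chr7:107370540-107370839, plus strand: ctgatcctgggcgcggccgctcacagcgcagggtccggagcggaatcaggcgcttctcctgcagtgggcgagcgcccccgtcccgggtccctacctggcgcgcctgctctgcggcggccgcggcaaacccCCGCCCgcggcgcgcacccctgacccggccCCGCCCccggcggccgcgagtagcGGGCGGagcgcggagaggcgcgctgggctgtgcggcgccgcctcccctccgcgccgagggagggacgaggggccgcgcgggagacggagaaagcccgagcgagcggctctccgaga
Vamp5, chr6:72380419-72380718, minus strand: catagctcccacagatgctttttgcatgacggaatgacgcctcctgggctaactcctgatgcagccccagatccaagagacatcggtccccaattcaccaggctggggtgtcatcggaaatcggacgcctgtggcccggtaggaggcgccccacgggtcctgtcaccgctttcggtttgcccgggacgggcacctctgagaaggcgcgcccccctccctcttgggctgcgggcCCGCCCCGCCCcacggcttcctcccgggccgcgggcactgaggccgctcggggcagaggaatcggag

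The Syt14 window held 6 GC boxes, the Syt9 window 3 and the Vamp5 window 2. Of the Stx2 windows, one held 3 GC boxes and the other 2 TATA boxes. The genes above and those below equality thus shared GC boxes, which are common in such windows. RefSeq windows were matched for 29 of the 39 genes (38 windows); 73.7% of those held GGGCGG, as did 35.7% of all 32851 windows, and 5.26% held TATAAA, against 13.6%. The cyclic AMP response element TGACGTCA was in none of the 38 (1.79% of all windows), and the Egr sequence GCGTGGGCG was in none either (0.612%). The median GC content was 63.7% in the 38 windows, against 52.7% in all.

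Among the synaptotagmins, Syt14 had the largest difference. Its brightest probe read a normalized log2 intensity of 7.68 in ASX RNA and 7.47 in control RNA on array 1, and 7.66 in ASX RNA and 7.31 in control RNA on array 2. The ASX RNA was the brighter on both arrays, and the ratios were 0.21 and 0.35 (mean 0.28 ± 0.10). Its second probe, at a mean log2 brightness of 6.80, gave 0.10 and 0.35, also above 0 on both arrays. Both probes were dim. The brightest had a mean log2 brightness of 7.54, with raw signals of 174 to 232 over backgrounds of 64 to 72. A mean ratio at least as high as that of Syt14 was seen in 59 genes with a symbol. The mean of Syt14 stayed above 0 under each of the 10 settings run with both arrays, between 0.10 and 0.35.

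Syt16, which the reference table also lists under the synonym Syt14l for its likeness to Syt14, lay on the same side. Its ratios were 0.08 and 0.13 (mean 0.11 ± 0.04), and its other probes had means of 0.11 and 0.07. That mean is smaller than the scanner's error for it. By median centring it was -0.09, but then all genes with a symbol had a median of -0.16.

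**Figure D2:**
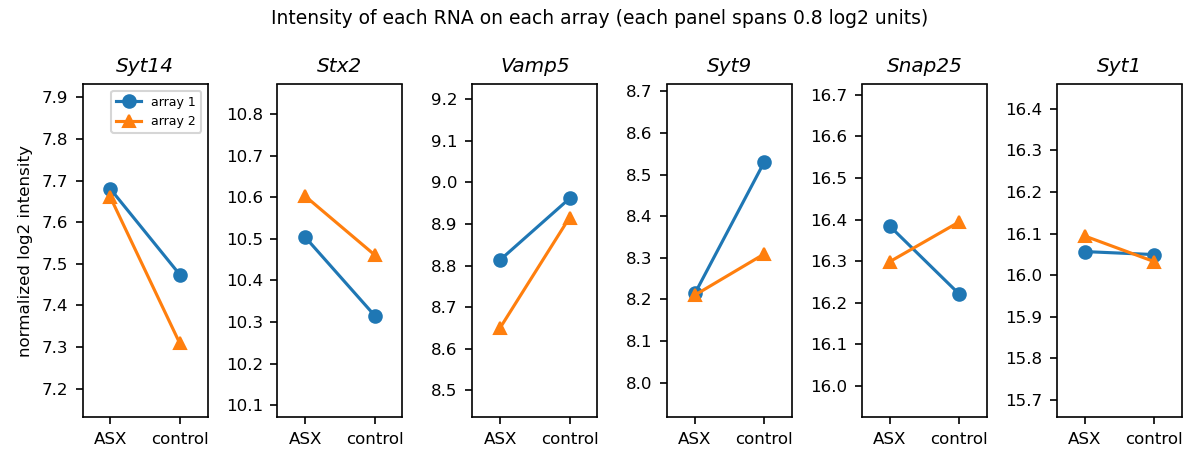
Normalized log2 intensity (y axis) of ASX and control RNA (x axis) on array 1 (circles) and array 2 (triangles) for 6 genes, each panel spanning the same height. Lines fall from ASX to control on both arrays for Syt14 and Stx2, climb on both for Vamp5 and Syt9, cross for Snap25, and are nearly flat for Syt1.

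The synaptotagmins that trigger fast fusion did not share a direction. Syt1, the main calcium sensor of hippocampal release, read 16.06 in ASX RNA and 16.05 in control RNA on array 1, and 16.09 in ASX RNA and 16.03 in control RNA on array 2. Its ratios were 0.007 and 0.06 (mean 0.03 ± 0.04). Syt1 is also the best covered gene of the group, with 5 measured probes, and their means ran from 0.03 to 0.22, all above 0. The 2 dimmest of the 5, with a mean log2 brightness of 11.84 and 11.01, had the highest means, 0.15 and 0.22. With each array centred on its median, the brightest Syt1 probe stood at -0.21, which was 0.05 below the median of genes with a symbol.

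Syt9, a fast sensor of limbic and striatal neurons in mice, had the lowest mean of the group. Its single probe read 8.21 in ASX RNA and 8.53 in control RNA on array 1, and 8.21 in ASX RNA and 8.31 in control RNA on array 2. The control RNA was the brighter on both arrays, and the ratios were -0.32 and -0.10 (mean -0.21 ± 0.15). Striatal markers moved the same way, with 8 of their 9 measured members below 0 on both arrays (background 26.4%). The mean log2 intensity of the 9 was 10.13 and 9.96 in ASX RNA on the arrays, against 10.42 and 10.29 in control RNA. Their summed intensity was 23921 and 22434 in ASX RNA, against 29141 and 29971 in control RNA. That sum is weighted to the brightest marker, Penk, with a mean log2 brightness of 13.86 and ratios of -0.41 and -0.58. The tenth marker was not measured. The part of striatal tissue in the Syt9 value was not tested. Syt2, the fast sensor of brainstem and spinal synapses, was read at a mean log2 brightness of 6.77 and had -0.04 and -0.19. Its mean was -0.11 here, and ran from -0.52 with the scanner's own ratios to 0.004 with median centring, so its direction is not fixed by these arrays.

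Of the other calcium-binding synaptotagmins, Syt7, the slow sensor behind asynchronous release, had 0.18 and 0.05 (mean 0.12 ± 0.09), and a probe for another of its transcripts had 0.01 and 0.02. Syt3, which takes part in the removal of AMPA receptors from the postsynaptic membrane, had 0.23 and -0.11. Syt10, first described in rat brain after seizures, had -0.13 and 0.40, the widest spread between arrays among the synaptotagmins (SD 0.38). Its second probe was closer to 0, at -0.02 and 0.13. Syt6, known from the acrosome reaction of sperm, had -0.20 and 0.05. Apart from Syt7, none of these genes kept its side on both arrays.

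Synaptotagmins that bind little or no calcium were spread on both sides. Syt4, which sits on dense-core vesicles and is induced by activity, had -0.08 and -0.09, the closest match between arrays of any synaptotagmin (SD 0.004). Its second probe had -0.24 and 0.14, so the match did not extend to the other probe. Syt17 had -0.17 and -0.05. Syt12 had -0.18 and 0.003, and its second probe 0.02 and -0.14. Syt11, an inhibitor of endocytosis, had 0.32 and -0.18, and Syt13 had 0.17 and -0.19. Both had the higher signal in Cy5 each time, and their means were 0.07 and -0.007.

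**Figure D3:**
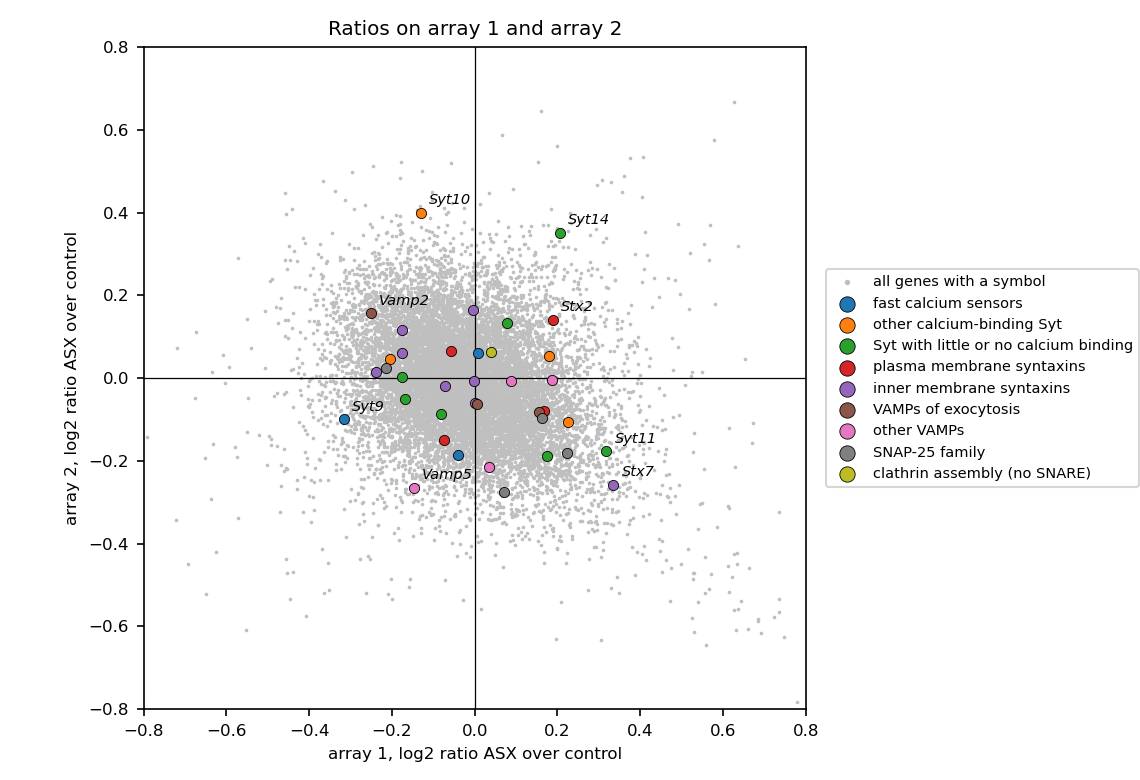
Log2 ratio of ASX over control on array 1 (x axis) and array 2 (y axis) for 38 of the 39 genes, coloured by role, over all genes with a symbol in grey (23 genes beyond 0.8 on an axis are outside the plot). They lie inside the grey cloud, with more of them in the upper left and lower right, where arrays disagree in sign, than in the other corners; Syt14 is at the upper right edge.

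Among the target SNAREs of the plasma membrane, Stx1a, which encodes a neuronal syntaxin of transmitter release, was close to equality, with -0.06 and 0.07 (mean 0.004 ± 0.09). Stx4a, the mouse gene of syntaxin-4, which serves exocytosis in dendritic spines and in insulin-responsive cells, had -0.07 and -0.15, and its second probe -0.21 and -0.04. Both Stx4a probes were below 0 on both arrays, with means of -0.11 and -0.12. The mean of the brightest was smaller in size than its scanner error.

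Stx2, the syntaxin also called epimorphin, had the second highest mean. It read 10.50 in ASX RNA and 10.32 in control RNA on array 1, and 10.60 in ASX RNA and 10.46 in control RNA on array 2, the ASX RNA being brighter each time. Its ratios were 0.19 and 0.14 (mean 0.16 ± 0.03). A second probe, with a mean log2 brightness of 6.88, lay on the other side, at -0.15 and -0.03. Averaged over both probes, the mean was 0.04. With spike-in RNAs as the zero it was -0.20, where genes with a symbol had a median of -0.36. Stx3, a syntaxin of ribbon synapses and dendrites, was read by 4 probes of 3 transcripts, with means from -0.03 to 0.19. The third probe by brightness gave 0.15 and 0.23, while the brightest, for another transcript, gave 0.17 and -0.08.

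The syntaxins of inner membranes had means close to 0. These 8 means ran from -0.11 for Stx18, a SNARE of the endoplasmic reticulum, to 0.08 for Stx17, a SNARE of autophagosomes. By their brightest probes, none of the 8 was above 0 on both arrays (background 14.3%), and 2 were below (background 26.4%). Stx5a, of transport between endoplasmic reticulum and Golgi, had -0.002 and -0.008. Stx16, of the trans-Golgi network, had -0.07 and -0.02. Stx12, of recycling endosomes, had 0.001 and -0.06. Stx7, of late endosomes, had the largest difference between arrays of the whole group, with 0.33 and -0.26 (SD 0.42), and a mean of only 0.04. Stx6, another SNARE of the trans-Golgi network, and Stx8, a late endosomal partner of syntaxin-7, had the opposite order of signs, with -0.18 and 0.12 for Stx6 and -0.18 and 0.06 for Stx8. Their second probes did not repeat that order, with 0.03 and 0.09 for Stx6 and -0.08 and -0.07 for Stx8.

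The vesicle SNAREs of exocytosis had means smaller than their spread between arrays. Vamp2, the synaptobrevin of most forebrain synapses, read 15.17 in ASX RNA and 15.42 in control RNA on array 1, and 15.24 in ASX RNA and 15.08 in control RNA on array 2. The order of the RNAs differed between the arrays, and the mean was -0.05 ± 0.29. Its other probes had means of -0.002 and 0.01. Vamp1, its close relative, had 0.16 and -0.08. Vamp3, the widely expressed cellubrevin, had 0.006 and -0.06, and its second probe 0.07 and -0.006.

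Vamp5 was the vesicle SNARE farthest from equality. It is best known from muscle. Its brightest probe read 8.81 in ASX RNA and 8.96 in control RNA on array 1, and 8.65 in ASX RNA and 8.92 in control RNA on array 2, lower in ASX RNA each time. The ratios were -0.15 and -0.27 (mean -0.21 ± 0.08). The second probe, at a brightness of 6.55, gave -0.03 and 0.05, so that the mean over both was -0.10. Vamp8, or endobrevin, lies on chromosome 6 with 1 gene between it and Vamp5. It had 0.04 and -0.21 by its brightest probe and -0.25 and -0.09 by the other, which was below 0 on both arrays. Vamp4, of the trans-Golgi network, had 0.19 and -0.006, and its second probe 0.14 and -0.15. Vamp7, which serves neurite growth and lysosome fusion, had 0.09 and -0.006.

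In the SNAP-25 family, Snap25, the partner of syntaxin-1 in release, read 16.38 in ASX RNA and 16.22 in control RNA on array 1, and 16.30 in ASX RNA and 16.39 in control RNA on array 2. Here too the order of the RNAs differed between the arrays, with ratios of 0.16 and -0.10 (mean 0.03 ± 0.18). All 3 Snap25 probes had means above 0, between 0.03 and 0.08, and all 3 had the higher signal in Cy5 each time. Snap47 had 0.22 and -0.18. Snap23, the form of non-neuronal cells and of postsynaptic sites, had -0.22 and 0.02, and its 3 probes lay on both sides of 0. Snap29, of endosomes and autophagosomes, had 0.07 and -0.28 by its brightest probe, but the other 2 probes were below 0 on both arrays, and the 3 means ran from -0.15 to -0.09. Snap91, the clathrin assembly gene, had 0.04 and 0.06.

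Other probes of the same gene gave a check that the choice of the brightest did not use. Of the 24 genes with at least 2 measured probes, 16 had the same sign of the mean in the brightest and the next (66.7%, against 64.5% of 4549 such genes with a symbol). One sign over all their probes was seen in 14, a count for which no share over all genes is given. Across the 24 genes the 2 probes had a Pearson correlation of 0.53, and 0.43 across all such genes with a symbol; probes of a gene share both arrays and both RNAs. Those 14 were Syt1, Syt7, Syt10, Syt11, Syt14, Syt16 and Snap25 above 0 and Syt4, Syt12, Stx4a, Stx5a, Stx8, Snap29 and Vamp8 below 0. The largest disagreements were those of Stx2 (SD over probes 0.18) and Vamp5 (0.15).

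**Figure D4:**
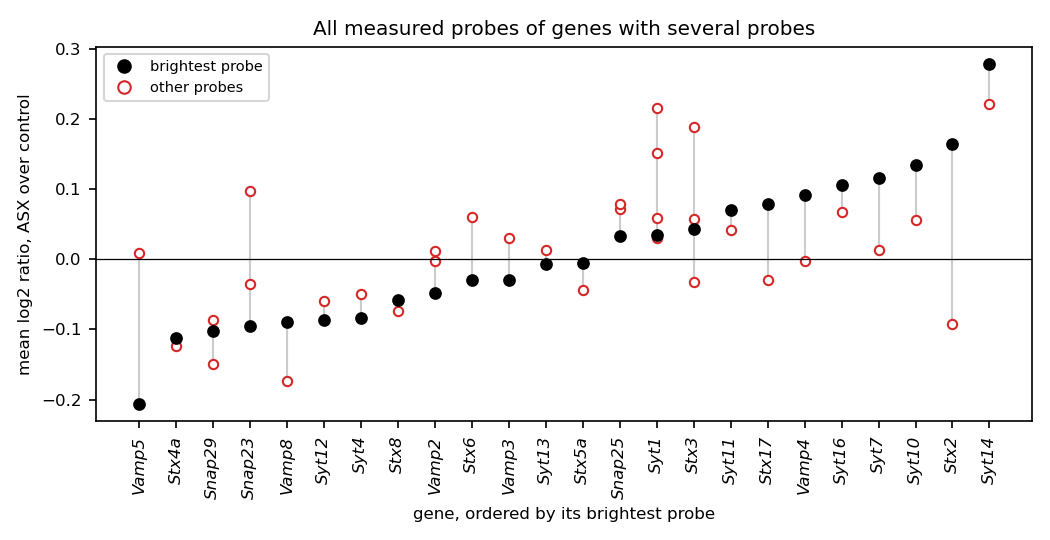
Mean log2 ratio of ASX over control (y axis) for every measured probe of the 24 genes with several probes (x axis, ordered by the brightest probe). Filled points are the brightest probe and open points the others; both Syt14 probes are above 0.2, all 5 Syt1 probes are above 0, and the probes of Stx2 and Vamp5 lie far apart.

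The partners of these proteins had medians close to 0. Among all genes with a symbol, 88.0% had a mean within 1.1-fold of equality. Of 28 genes that template, prime, clamp or take apart SNARE complexes, 22 were measured, none reached 1.2-fold on each array, 18 (81.8%) had a mean within 1.1-fold of equality, and the median was 0.02. Rph3a, the gene of rabphilin, a vesicle protein with C2 domains that binds Rab3, had -0.22 and -0.29, Doc2a, a C2-domain protein of spontaneous and asynchronous release, -0.20 and -0.16, and Stxbp5l, a tomosyn, 0.10 and 0.24. Of 32 genes of the active zone and the vesicle, 27 were measured, none reached 1.2-fold, 25 (92.6%) had a mean within 1.1-fold, and the median was 0.01. Rims4 had -0.37 and -0.01, Pclo, the scaffold piccolo, 0.07 and 0.26, and Ppfia2, a liprin, 0.18 and 0.08. All 10 SNAREs outside the naming rule were measured, each with a mean within 1.1-fold, and with a median of -0.03. Bet1l, of the Golgi, had -0.10 and -0.11, Bnip1, of the endoplasmic reticulum, -0.04 and -0.09, and Gosr1, of the Golgi, -0.10 and 0.01. Of 8 synaptotagmin-like and extended synaptotagmin genes 7 were measured, with a median of -0.004, and 4 (57.1%, background 88.0%) had a mean within 1.1-fold. These 7 were dim, with a median log2 brightness of 8.11, against 10.33 over genes with a symbol. Sytl1 had -0.22 and -0.20, Sytl4 -0.27 and -0.07, and Esyt2 0.25 and 0.07. Of these 4 lists, 0 of 66 measured genes passed either size, in either direction. Few genes with a symbol did so: 0.233% were higher and 0.330% lower at 1.2-fold, and 0.0300% each way at 1.5-fold.

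**Figure D5:**
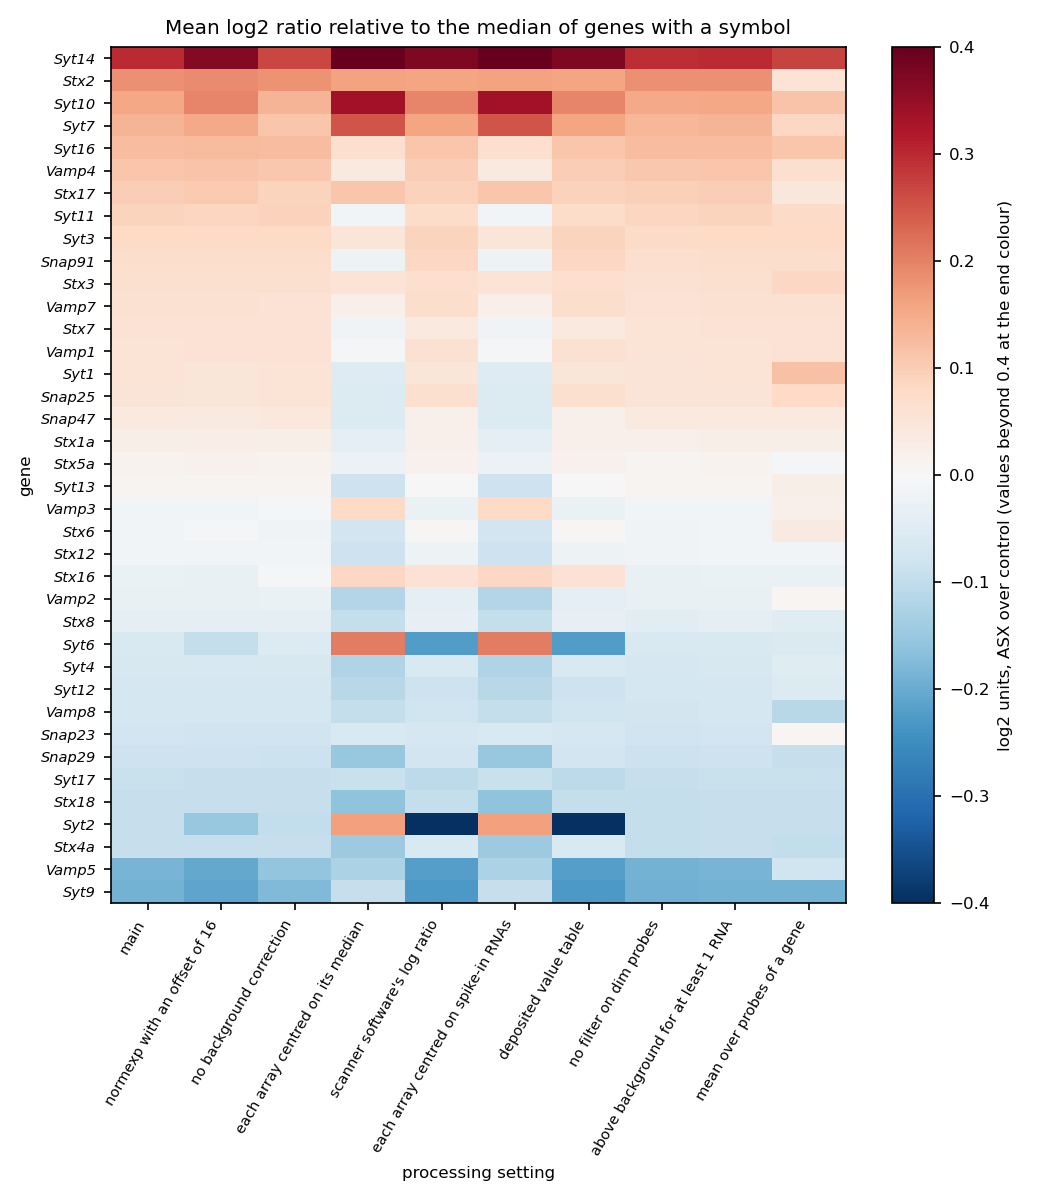
Mean log2 ratio of ASX over control for 38 of the 39 genes (y axis, ordered by mean) under the 10 settings with both arrays (x axis), each relative to the median of genes with a symbol under that setting. Syt14 is red throughout and Syt9 and Vamp5 are blue throughout, while Syt2 and Syt6 change colour with the scaling; the settings that centre on the median and on spike-in RNAs differ by a constant and so look alike, as do the scanner's ratio and the value table.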

How the data were processed

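Scanner images were quantified in Agilent Feature Extraction (version 11.0.1.1, per the submitters' processing notes). In the deposited files the intensity is a spot's median pixel value per dye with its local background, not normalized. The deposited log10 ratio of Cy5 over Cy3, its error and the value table of the series come, per the file headers, from signals that the software had background-subtracted and dye-normalized. The value table keeps Cy5 over Cy3 for both arrays, with medians of 0.0050 and 0.0083.

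From the intensities, background was corrected with limma 3.58.1 (R 4.3.3; normexp, offset 50), then loess was fitted within arrays, control spots having weight 0. Ratios were turned to log2(ASX / control). Intensities of single RNAs were scaled between arrays by Aquantile. Of 45018 features, 1639 control and 3 outlier spots were left out. No spot was saturated. Spots of a probe were averaged into 41171 probes, and 23372 of them were named through RefSeq accessions of GRCm38.p6, without versions. Only probes well above background in all 4 readings were kept (30078).

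The arrays were taken to hold the same 2 RNAs, which the labels do not settle, so sizes and counts are given without tests. A gene counted at a size when past it in one diet direction on each array. Values of 1 measured member are not reported here, though counts and medians include it; from the partner lists, the 3 largest mean ratios of each are given. Members and lists were chosen with earlier results of these data known. The ratio calculation was tested on simulated data. Alternatives in background, scaling, filter and probe choice were run.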

Additional observations from a re-analysis of the deposited data

How the results depend on the processing

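No paired analysis was possible because the arrays, taken to carry the same pair of RNAs, were counted as 1 replicate. The counts at 1.5-fold were 0 in both directions under all 11 alternatives. The scanner's ratio and the value table put 1 gene, Syt14, at 1.2-fold higher on each array. Median centring gave 2 genes above and 22 below 0 on both arrays (background 8.92% and 61.4%) and a median of -0.18. Centring on spike-in RNAs gave 0 above and 33 below (background 0.278% and 81.1%), 13 genes 1.2-fold lower on each array and a median of -0.38. Genes with a symbol then had medians of -0.16 and -0.36, so the 39 genes were 0.02 below them in both cases. On array 1 alone, 20 genes were above 0 and 19 below (background 43.0% and 57.0%), and on array 2 alone 16 and 23 (background 44.9% and 55.1%). On single arrays 2 genes were 1.2-fold higher and 1 to 2 lower, and the median ran from -0.02 to 0.001. Shares over all genes at 1.2-fold are not given for spike-in centring or single arrays. Relative to the median of genes with a symbol, 21 of the 39 genes kept one side under all 10 settings with both arrays, 10 above and 11 below. No share over all genes is given for this count. The 10 settings are not separate checks, since median and spike-in centring then give the same values, as do the scanner's ratio and the value table. The filter settings also left the ratios of these genes as they were. Dim genes such as Syt2, Syt6 and Syt14 are limited by signal over background.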

Other observations

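The Doc2 genes and Rph3a, which encode related proteins with C2 domains, were singled out after their values were seen. By their brightest probes all 4 lay below 0 on both arrays, as did 26.4% of genes with a symbol, with means of -0.18 for Doc2a, -0.17 for Doc2b, -0.11 for Doc2g and -0.26 for Rph3a. Of all 22 measured genes of their list, 8 were below 0 on both arrays and 5 above. A second Doc2g probe was also below 0 on both arrays, at -0.13 and -0.01. A second Rph3a probe had opposite signs, at 0.38 and -0.32. Relative to the median of genes with a symbol, the 4 stayed below it under all 10 settings with both arrays, by 0.003 for Doc2g at the least. The share of all genes that did so is not given, and the 10 settings are not separate checks.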
